A study of Rattus norvegicus with 12 samples.

Results

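Peptides shown to CD8 T cells on major histocompatibility complex (MHC) class I are cut by the proteasome, moved into the endoplasmic reticulum and loaded there. The transcripts described here encode 10 parts of that route: the inducible proteasome subunits Psmb8, Psmb9 and Psmb10, the activator subunits Psme1 and Psme2, the peptide transporter subunits Tap1 and Tap2, the loading chaperone Tapbp, the class I light chain B2m, and Nlrc5. They were taken by symbol from a table of 30045 rows, where all 10 were present, and all 10 were among the 17330 genes that passed the filter on low counts. RNA was sequenced from theca-interstitial cells, which make androgens in the ovary, and which came from wild type Sprague Dawley females at postnatal day 30. The isolated cells grew on human fibronectin in McCoys 5A medium and received vehicle (control, 4 libraries), rat interleukin-1β (IL-1β, 4 libraries) or lipopolysaccharide (LPS, a bacterial cell wall component, at 1 µg/ml, 4 libraries) for 48 h. The labels give no IL-1β dose and leave unsaid whether a replicate is a separate animal or isolation, so every p-value measures the spread between these cultures, which may be technical.

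The proteasome cuts proteins with 3 catalytic subunits, which in resting cells are the products of Psmb5, Psmb6 and Psmb7. Interferons, and interferon-γ above all, are known to raise Psmb8, Psmb9 and Psmb10, whose products take those places and form the immunoproteasome, together with a cap made of the Psme1 and Psme2 products. The product of Nlrc5 is a transactivator that acts on class I genes, B2m, Tap1 and Psmb9, while a factor site called the interferon-stimulated response element (ISRE) binds interferon regulatory factors.

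Total counts ran from 20873934 to 32090924 per library. Members had between 220 counts (Nlrc5) and 41116 counts (B2m) in a library. Levels are given as CPM, read counts scaled to the size of the library. All 9 theca cell markers passed the filter, with a summed level of 261 to 290 CPM in control cultures, 635 to 683 with IL-1β and 488 to 542 with LPS. Of these 7 rose and 1 fell with IL-1β, 5 rose and 1 fell with LPS, and 6 were lower with LPS than with IL-1β. Star, which brings cholesterol to the mitochondrion, held the largest share of that sum in control (mean 141 CPM), while the defining androgen enzyme gene Cyp17a1 had 12 to 18 counts (0.395 to 0.634 CPM) and Insl3 had 4 to 8 counts in each control library. Tcf21 was the marker that fell in both treatments, from a mean of 21.5 CPM to 13.5 with IL-1β and 13.1 with LPS. Fewer cells of a type and less RNA per cell cannot be told apart in such bulk libraries. Over all genes tested, 47.7% were called with IL-1β and 42.5% with LPS against control, and 21.9% between the treatments, at an adjusted p under 0.05. Among the called genes 51.7% were higher with IL-1β and 53.0% with LPS, or 64.1% and 63.4% with library size alone as the scaling.

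Promoter windows, from 250 bases before to 50 bases after the annotated start, were found in RefSeq (build GRCr8) for 9 of the 10 members, Nlrc5 being the one with none. The ISRE core was searched on both strands as GAAA repeated with any 2 bases between the copies. It stood in 7 of the 9 windows, against 2.91% of 10739 windows of genes tested and 3.92% of all 33469 windows. The matches are shown in capitals, 5′ to 3′ on the gene's strand, with 15 bases on either side, because the ISRE stood in more of the members' windows than the other motifs searched. A match is a description of the letters and not of a bound site.
Psmb8, chr20:4657011-4657050, minus strand: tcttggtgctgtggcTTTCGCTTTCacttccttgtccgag
Psmb10, chr19:50743285-50743380, minus strand: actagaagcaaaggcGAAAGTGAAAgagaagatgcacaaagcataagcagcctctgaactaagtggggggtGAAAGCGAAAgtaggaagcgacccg
Psme2, chr15:33052780-33052819, minus strand: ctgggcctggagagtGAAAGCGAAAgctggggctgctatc
Tap1, chr20:4668640-4668679, minus strand: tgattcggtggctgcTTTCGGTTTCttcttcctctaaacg
Tap2, chr20:4652313-4652352, minus strand: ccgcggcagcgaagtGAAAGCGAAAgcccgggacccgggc
Tapbp, chr20:4967873-4967918, minus strand: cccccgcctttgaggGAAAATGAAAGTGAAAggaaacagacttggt
B2m, chr3:129549165-129549204, plus strand: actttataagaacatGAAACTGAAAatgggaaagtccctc

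The Psme2 and Tap2 matches, and 1 of the 2 in Psmb10, had the same letters, GAAAGCGAAA, and the Psmb8 match was its reverse complement. In Tapbp the capitals hold 2 matches that overlap. Neither the Psmb9 nor the Psme1 window held a whole match. The Psme1 window ends in tttcgctt, the first letters of the Psmb8 match, so a match across that edge would not be counted. Sequence outside the windows was not searched for each gene. A match stood in 0 of 7 windows of constitutive proteasome genes and 0 of 6 of folding and loading genes. Among windows of class I heavy chains it stood in 3 of 25. For the other lists used below it stood in 1 of 6 windows of peptidases and 1 of 4 of molecules built like class I. It stood in 1 of 12 windows of regulators, 1 of 11 of interferon signalling genes and 0 of 3 of ubiquitin-like genes. The kappa B motif stood in 3 member windows, those of Tap1, Tapbp and B2m, against 10.1% of windows of genes tested, and in B2m 3 bases separated it from the ISRE match. The interferon-γ activated site (GAS), TTCNNNGAA, was found in Psmb8 alone (6.63% of windows of genes tested). The GC box, GGGCGG, stood in 5 member windows (60.2% of windows of genes tested).

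**Figure D1:**
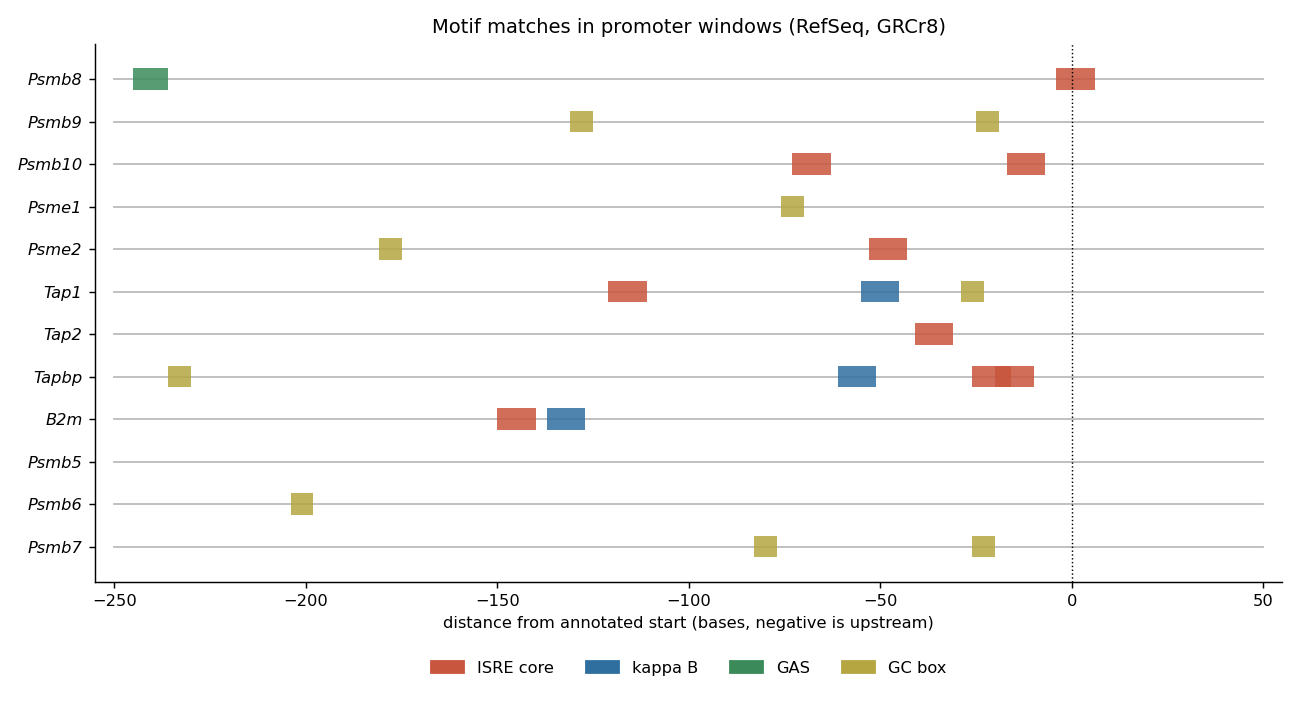
Motif matches in the promoter windows of 9 members and of Psmb5, Psmb6 and Psmb7, drawn against distance from the annotated start in bases (negative is upstream), with 1 colour for each motif. ISRE matches stand in 7 of 9 member windows and in none of the other 3.

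Tap2, Psmb8, Tap1 and Psmb9 follow each other in that order within the MHC on chromosome 20, where Tapbp also lies. Tap1 and Psmb9 are read away from each other from starts 457 bases apart, so their windows overlap by 44 bases. Both windows are printed whole because these neighbours differed in their values below, and the capitals again mark the ISRE core. The ISRE and kappa B matches of the Tap1 window lie between the starts, upstream of both genes, but outside the Psmb9 window. Whether they bear on those values was not tested.
Tap1, chr20:4668494-4668793, minus strand: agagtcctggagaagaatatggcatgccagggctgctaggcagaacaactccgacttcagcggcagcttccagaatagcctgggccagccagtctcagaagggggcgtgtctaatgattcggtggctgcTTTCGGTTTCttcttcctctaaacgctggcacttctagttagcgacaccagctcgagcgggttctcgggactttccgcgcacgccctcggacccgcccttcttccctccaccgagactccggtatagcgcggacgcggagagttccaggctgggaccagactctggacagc
Psmb9, chr20:4668750-4669049, plus strand: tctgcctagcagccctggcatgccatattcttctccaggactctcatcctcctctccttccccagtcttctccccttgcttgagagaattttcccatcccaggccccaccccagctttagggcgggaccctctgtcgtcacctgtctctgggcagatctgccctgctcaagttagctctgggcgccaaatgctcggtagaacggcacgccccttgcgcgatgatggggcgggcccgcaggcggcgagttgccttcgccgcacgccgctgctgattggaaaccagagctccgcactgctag

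IL-1β was compared with control, LPS with control, and LPS with IL-1β, to ask how each stimulus shifts these transcripts and whether the stimuli differ. With IL-1β, 7 of the 10 members fell and 0 rose, while 23.0% of all genes tested fell and 24.7% rose. With LPS 5 rose and 0 fell, while 22.5% of all genes rose and 20% fell. Between the treatments all 10 were higher with LPS, where 11.3% of all genes tested were higher and 10.6% lower. The median log2 fold change of the members was -0.18 with IL-1β (0.01 over all genes), 0.11 with LPS (0.01) and 0.30 for LPS against IL-1β (0.00). Both comparisons with control share the 4 control libraries. All 4 IL-1β libraries lay below all 4 control libraries for 6 members, which was so for 21.4% of genes tested (22.8% lay above, 44.2% either way). All LPS libraries lay above control for 4 members (20.1% of genes tested above, 18.2% below, 38.3% either way) and above IL-1β for all 10 (11.1% above, 10.6% below, 21.6% either way).

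**Figure D2:**
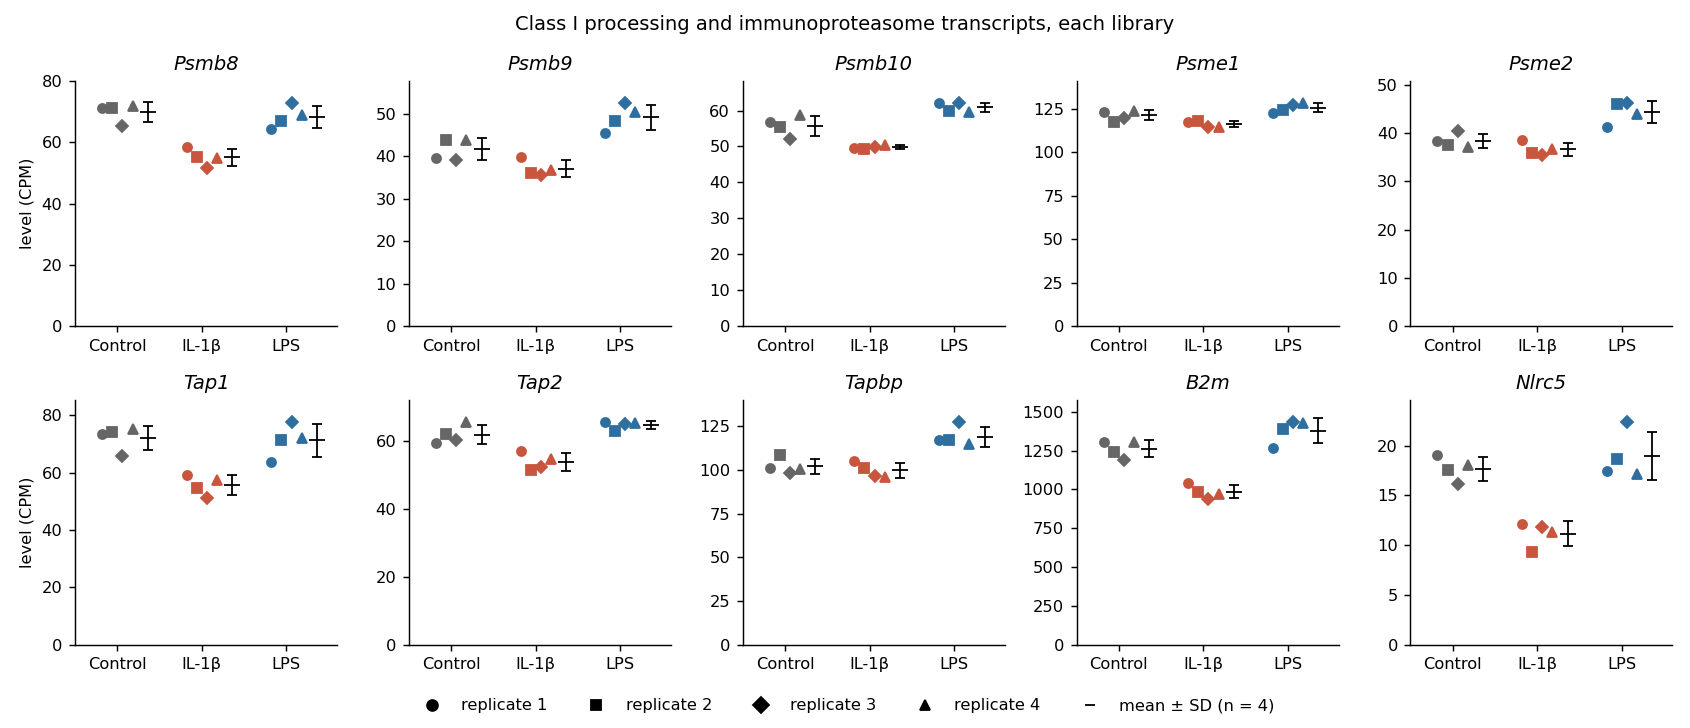
Level of each member in CPM (y axis, from 0) in each of the 12 libraries, with symbols for replicates 1 to 4 and the mean ± SD (n = 4) beside them. All 4 LPS libraries stand above all 4 IL-1β libraries in each of the 10 panels.

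Psmb8, the subunit that replaces the Psmb5 product, was lower with IL-1β than in either other group. Its level was 71.1, 71.3, 65.2 and 72.0 CPM in control replicates 1 to 4, 58.6, 55.1, 51.8 and 54.97 CPM with IL-1β, and 64.4, 67.0, 72.7 and 68.9 CPM with LPS. The IL-1β libraries lay below every control library, and LPS and control overlapped. Psmb8 fell by 21.4% with IL-1β (log2 fold change -0.35 ± 0.04, adjusted p = 9.08e-08; here ± is the SE of a fitted log2 value, from 4 libraries in each group). With LPS it stood at -0.04 ± 0.04 (adjusted p = 0.498), and LPS exceeded IL-1β by 0.31 ± 0.04 (adjusted p = 4.71e-06).

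Psmb9, which takes the place of the Psmb6 product, was lowest with IL-1β and highest with LPS. It had 39.7, 44.0, 39.2 and 44.0 CPM in control replicates, 39.9, 36.1, 35.6 and 36.8 CPM with IL-1β, and 45.5, 48.4, 52.5 and 50.5 CPM with LPS. IL-1β replicate 1 reached into the control range, and all LPS libraries were above it. The fall with IL-1β was of 0.17 on the log2 scale (-0.17 ± 0.05, adjusted p = 0.0074), and with LPS Psmb9 rose by 17.9% (0.24 ± 0.05, adjusted p = 2.48e-04). LPS was above IL-1β by 0.41 ± 0.05 (adjusted p = 1.01e-06).

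Psmb10, the counterpart of Psmb7, was also lowest with IL-1β and highest with LPS. Control replicates held 56.7, 55.3, 52.2 and 58.7 CPM, IL-1β replicates 49.6, 49.3, 49.7 and 50.5 CPM, and LPS replicates 62.0, 59.98, 62.0 and 59.7 CPM. No group overlapped another. Psmb10 fell by 10.9% with IL-1β (-0.17 ± 0.04, adjusted p = 5.53e-04), rose with LPS (0.12 ± 0.04, adjusted p = 0.00689) and was 22.3% higher with LPS than with IL-1β (0.29 ± 0.04, adjusted p = 1.57e-06).

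Of the activator subunits neither was past the threshold with IL-1β, and whether they differed from other members in this was not tested. Psme1 had 123, 118, 120 and 124 CPM in control, 118, 118, 114.8 and 114.5 CPM with IL-1β, and 122.7, 124.6, 127 and 128 CPM with LPS. Neither treatment was past the threshold against control (IL-1β -0.06 ± 0.03, adjusted p = 0.0783; LPS 0.05 ± 0.03, adjusted p = 0.16), though LPS was above IL-1β (0.11 ± 0.03, adjusted p = 0.00509). With IL-1β Psme1 was called lower without Control replicate 2 (-0.08). The count of a pseudogene row, Psme1-ps1, was between 0.551 and 0.611 times that of Psme1, and since the handling of shared reads is not given in the sources used here, the Psme1 values are uncertain. Psme2, its partner in the cap, had 38.4, 37.6, 40.5 and 37.1 CPM in control, 38.5, 35.9, 35.5 and 36.7 CPM with IL-1β, and 41.3, 46.1, 46.2 and 44.1 CPM with LPS. Every LPS library was above every other library. Psme2 rose by 15.9% with LPS (0.21 ± 0.04, adjusted p = 2.45e-04), stood at -0.06 ± 0.05 with IL-1β (adjusted p = 0.26) and was higher with LPS than with IL-1β (0.28 ± 0.04, adjusted p = 3.96e-05).

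Tap1 and Tap2 form the pump that carries peptides into the endoplasmic reticulum, and both fell with IL-1β. Tap1 had 73.3, 74.1, 65.7 and 75.3 CPM in control, 59.2, 54.5, 51.3 and 57.4 CPM with IL-1β, and 63.9, 71.6, 77.8 and 71.9 CPM with LPS. The IL-1β libraries were below all others, while LPS spanned the control range. Tap1 fell by 23.1% with IL-1β (-0.38 ± 0.06, adjusted p = 5.45e-05), was at -0.02 ± 0.06 with LPS (adjusted p = 0.809) and differed by 0.36 ± 0.06 between the treatments (adjusted p = 3.96e-04). Tap2 had 59.5, 62.1, 60.4 and 65.8 CPM in control, 57.2, 51.4, 52.4 and 54.9 CPM with IL-1β, and 65.8, 63.1, 65.1 and 65.3 CPM with LPS. It fell by 12.9% with IL-1β (-0.20 ± 0.04, adjusted p = 1.13e-04), was not past the threshold with LPS (0.06 ± 0.04, adjusted p = 0.186) and was 20.1% higher with LPS than with IL-1β (0.26 ± 0.04, adjusted p = 1.32e-05). The row of an unnamed locus, LOC103689996, held 0.995 to 1.01 times the count of Tap2 in each library, so reads may stand in both rows.

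Tapbp, tapasin, bridges the transporter and empty class I molecules, and it rose with LPS. Its level was 100.9, 108.5, 98.4 and 100.3 CPM in control, 105, 101, 96.6 and 95.7 CPM with IL-1β, and 117, 117, 127.5 and 115 CPM with LPS. Control and IL-1β libraries were intermixed, and all LPS libraries lay above them. Tapbp rose by 16.6% with LPS (0.22 ± 0.04, adjusted p = 2e-05), stood at -0.03 ± 0.04 with IL-1β (adjusted p = 0.479) and was higher with LPS than with IL-1β by 0.26 ± 0.04 (adjusted p = 1.34e-05).

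B2m, the light chain without which class I molecules do not reach the surface, fell with IL-1β. It had 1304, 1241, 1192 and 1307 CPM in control, 1041, 981, 940.5 and 973.5 CPM with IL-1β, and 1264, 1387, 1436 and 1428 CPM with LPS. All IL-1β libraries were below all others, and LPS replicate 1 fell within the control range. B2m fell by 22.0% with IL-1β (-0.36 ± 0.04, adjusted p = 4e-07) and was 40.1% higher with LPS than with IL-1β (0.49 ± 0.04, adjusted p = 6.43e-08). The rise of 9.32% with LPS (0.13 ± 0.04, adjusted p = 0.0148) was not called without Control replicate 3 (0.10), LPS replicate 3 (0.11) or LPS replicate 4 (0.11).

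Nlrc5, the transactivator, had the lowest fitted log2 fold change of the members with IL-1β and the highest for LPS against IL-1β. Its level was 19.0, 17.5, 16.1 and 18.1 CPM in control, 12.1, 9.30, 11.8 and 11.3 CPM with IL-1β, and 17.4, 18.7, 22.4 and 17.2 CPM with LPS. The IL-1β libraries stood apart below, and control and LPS overlapped. Nlrc5 fell by 37.3% with IL-1β (-0.67 ± 0.09, adjusted p = 1.54e-06), was at 0.09 ± 0.08 with LPS (adjusted p = 0.424) and was 69.4% higher with LPS than with IL-1β (0.76 ± 0.09, adjusted p = 1.89e-06).

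**Figure D3:**
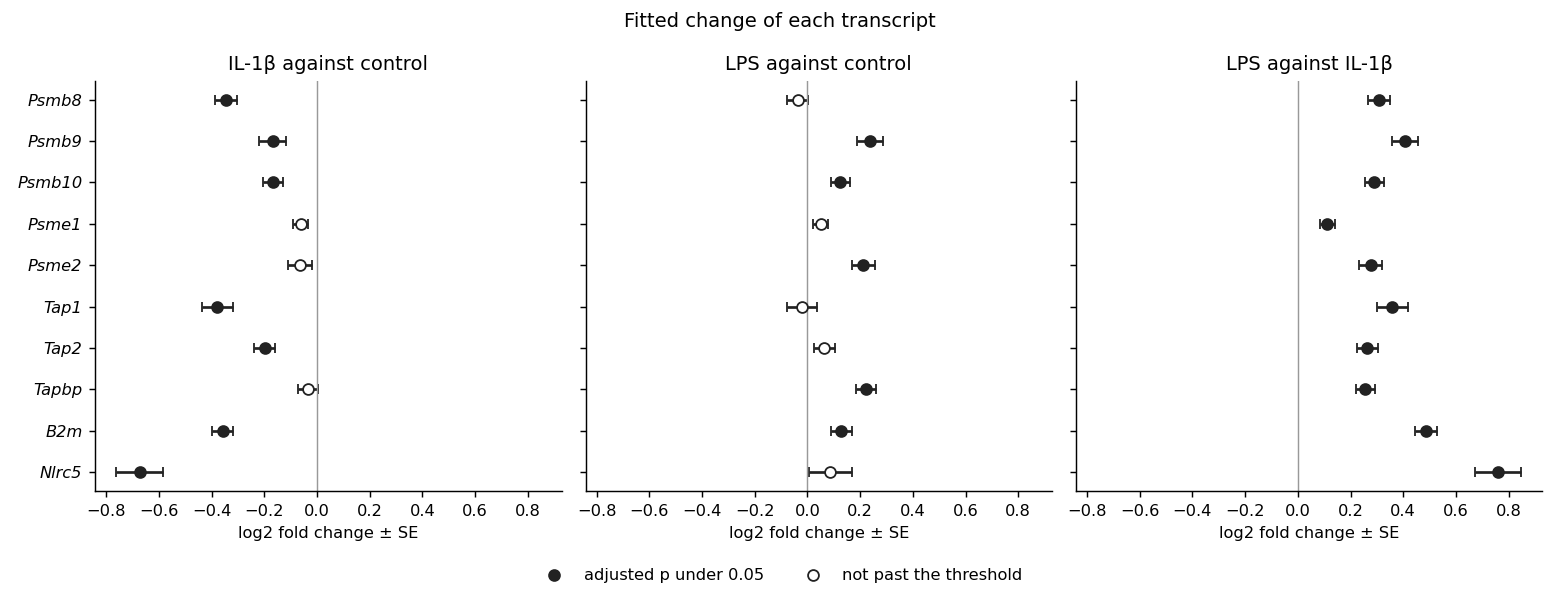
Fitted log2 fold change ± SE (x axis) of each member in the 3 comparisons, filled where the adjusted p was under 0.05. With IL-1β 7 filled points lie left of 0, with LPS 5 lie right of it, and for LPS against IL-1β all 10 do.

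Members moved together between libraries of 1 group as well. Control replicate 3, the library with the lowest total, was the lowest of its group for 7 of the 10 members, and Control replicate 4 the highest for 7. With IL-1β replicate 1 was the highest for 8. With LPS replicate 1 was the lowest for 6 and replicate 3 the highest for 7. Without Control replicate 3 or LPS replicate 3, 7 members fell with IL-1β, 4 rose with LPS and 10 were higher with LPS than with IL-1β. The members are thus not taken as independent of each other. How all genes tested ranked in these libraries was not measured, so this is not shown to be particular to the members.

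Ratios of counts within a library need no scaling between libraries, and they set each inducible subunit beside the one it replaces. Psmb8 over Psmb5 was 0.922, 0.889, 0.864 and 0.913 in control, 0.823, 0.720, 0.663 and 0.725 with IL-1β, and 0.843, 0.904, 0.941 and 0.924 with LPS. With IL-1β it lay below every control library, with a log2 difference of -0.30 ± 0.07 (-18.5%). Psmb5 itself was not past the threshold in either treatment (-0.05 ± 0.03 with IL-1β, -0.04 ± 0.03 with LPS).

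For Psmb9 over Psmb6 the ratio was 1.13, 1.14, 1.01 and 1.08 in control, 1.24, 1.02, 0.977 and 1.18 with IL-1β, and 1.22, 1.47, 1.40 and 1.38 with LPS. Control and IL-1β overlapped (log2 difference 0.02 ± 0.09), since Psmb6 fell too (-0.18 ± 0.05, adjusted p = 0.00854), while LPS was 25.6% above control (0.33 ± 0.07). Psmb10 over Psmb7 was 0.552, 0.539, 0.516 and 0.563 in control, 0.500, 0.506, 0.524 and 0.528 with IL-1β, and 0.638, 0.580, 0.589 and 0.583 with LPS. That ratio was 10.1% above control with LPS (0.14 ± 0.04) and at -0.08 ± 0.03 with IL-1β, where the groups overlapped. Psmb7 fell by 0.09 on the log2 scale with IL-1β (-0.09 ± 0.03, adjusted p = 0.0211). It was not called with Control replicate 4 left out (-0.08), with IL-1β replicate 3 left out (-0.08) or under library size alone (-0.04).

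Psme3 encodes the other, nuclear proteasome cap of this family. Psme2 over Psme3 was 8.68% higher with LPS than in control (0.12 ± 0.03), with a mean of 0.505 ± 0.0168 (SD, n = 4) against 0.465 ± 0.0113. Psme1 over Psme3 overlapped between all groups (1.47 ± 0.0656 in control, 1.41 ± 0.0654 with IL-1β, 1.43 ± 0.0710 with LPS).

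Tap1 over its neighbour Psmb9 was 1.85, 1.69, 1.68 and 1.71 in control, 1.48, 1.51, 1.44 and 1.56 with IL-1β, and 1.40, 1.48, 1.48 and 1.43 with LPS. Both treatments lay below all control libraries, with a log2 difference of -0.21 ± 0.04 for IL-1β (-13.4%) and -0.26 ± 0.04 for LPS (-16.4%). Between the treatments the ratio overlapped (-0.05 ± 0.03). In all, 9 of 18 such comparisons had the smallest p that the two-sided exact permutation test over 70 arrangements can give (p = 0.02857). None passed after adjustment over the 18 (smallest adjusted p = 0.0571). With so few libraries the smallest possible p limits what can pass this adjustment, so the ratios are not shown to be unchanged.

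**Figure D4:**
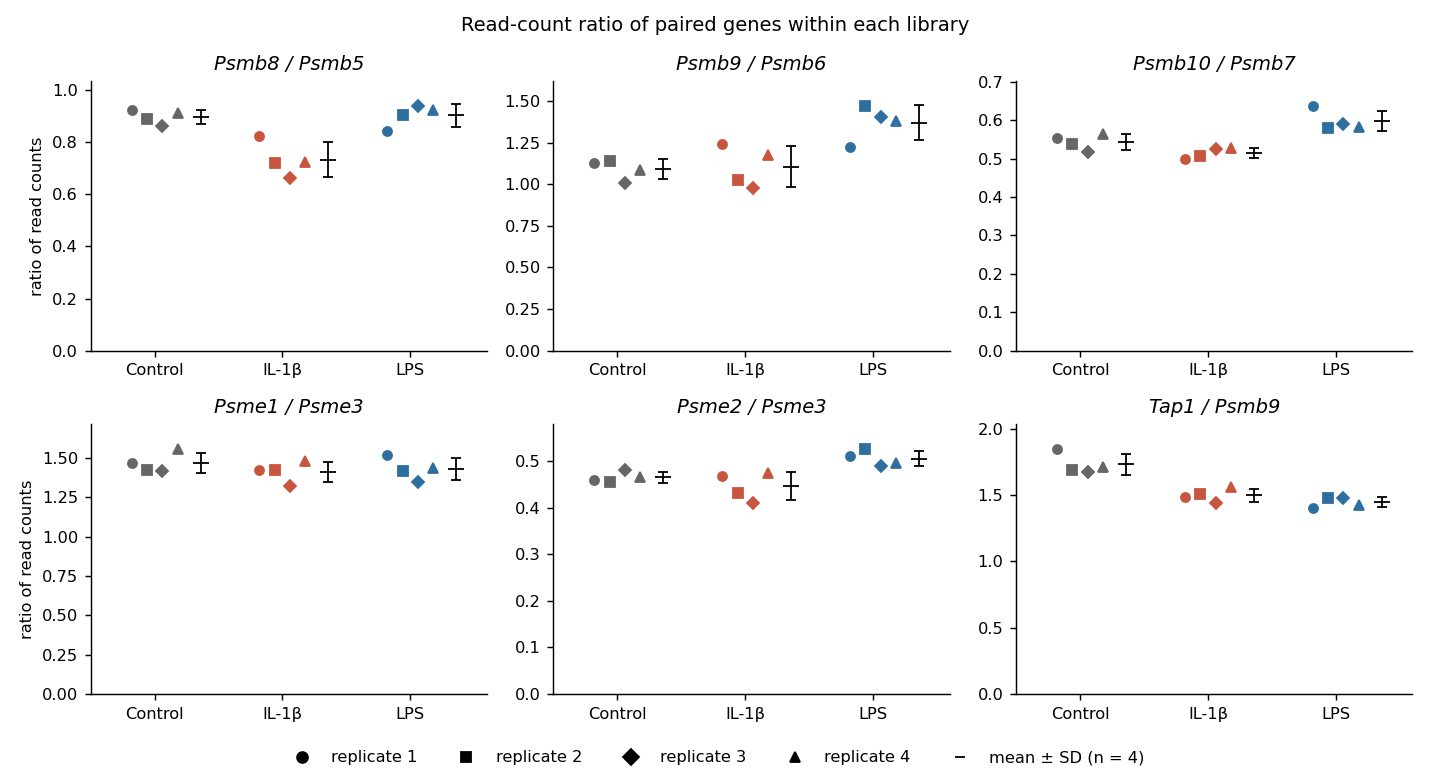
Read-count ratio of each gene pair (y axis, from 0) within each of the 12 libraries, with symbols for replicates 1 to 4 and the mean ± SD (n = 4). Psmb8 over Psmb5 is lower in the IL-1β libraries, Psmb9 over Psmb6 is higher in the LPS libraries than in control, and Tap1 over Psmb9 is highest in control.

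Class I heavy chains, which pair with the B2m product, had 29 rows with rat class I symbols, of which 26 were tested. With IL-1β 18 fell and 0 rose (median -0.19), with LPS 4 rose and 0 fell (median 0.08), and 20 were higher with LPS than with IL-1β and 0 lower (median 0.28). Over all genes tested, 23.0% fell with IL-1β, 22.5% rose with LPS and 11.3% were higher with LPS than with IL-1β. The 4 of 26 that rose with LPS were thus a smaller share than among all genes tested. The shares given above for all genes tested are also the background for the counts of the lists below. RT1-A1 went from 431 ± 23.5 CPM in control to 377 ± 14.6 with IL-1β (-0.19 ± 0.04, adjusted p = 1.29e-04) and 461 ± 18 with LPS (0.10 ± 0.04, adjusted p = 0.0402). RT1-A2 (-0.20 ± 0.04) and RT1-CE6 (-0.39 ± 0.07) fell with IL-1β, and RT1-M3-1 (0.17 ± 0.05), RT1-CE3 (0.12 ± 0.04) and RT1-M6-1 (0.10 ± 0.04) rose with LPS. With LPS, RT1-A1 was not called when Control replicate 1 or 3, IL-1β replicate 2 or LPS replicate 2 or 3 was left out (0.06 to 0.10), nor RT1-CE3 when Control replicate 1 or 3 or LPS replicate 2 or 3 was (0.10 to 0.12). RT1-M6-1 was not called when Control replicate 1, 2 or 3 or LPS replicate 2, 3 or 4 was left out (0.08 to 0.11), and neither it nor RT1-A1 was called under DESeq2 size factors. The number higher with LPS was 1 without Control replicate 1, Control replicate 3, LPS replicate 2 or LPS replicate 3. It was 10 with library size alone. Class I genes of the rat include close copies, and identity between these rows was not measured here, so some may share reads and they are not taken as separate observations.

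Of 7 constitutive proteasome genes tested, 4 fell with IL-1β (median -0.07), namely Psmb6, Psmb7, Psme4 and Pomp (-0.09 ± 0.04). With LPS 0 were called (median -0.01), with adjusted p from 0.0727 for Psme3 upwards. The assembly factor Pomp, named after its value was seen, was the 1 gene higher with LPS than with IL-1β (0.13 ± 0.04). The number lower with IL-1β was 2 without Control replicate 1, Control replicate 4, IL-1β replicate 2 or IL-1β replicate 3. It was 0 with library size alone. Psme4, another activator, fell by 0.07 (-0.07 ± 0.03, adjusted p = 0.0394), and was not called with Control replicate 1, 2 or 3 or IL-1β replicate 2 or 3 left out, nor under library size alone. Psme3 was not past the threshold (-0.00 ± 0.04 with IL-1β, 0.09 ± 0.04 with LPS). With LPS the number higher was 1 without LPS replicate 1. Against IL-1β it was then 3, and it was 0 without IL-1β replicate 2 or LPS replicate 3.

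Of 8 chaperones and enzymes of folding and loading, 6 fell with IL-1β (median -0.13), and with LPS 6 fell and 1 rose (median -0.12). Calr, a lectin chaperone of the loading complex, went from 1380 ± 80.2 CPM to 1150 ± 19.9 with IL-1β (-0.26 ± 0.04, adjusted p = 4.76e-06) and 1150 ± 58.0 with LPS (-0.26 ± 0.04, adjusted p = 6.25e-06). Erap1, which trims peptides to length, fell by 0.21 with IL-1β and 0.15 with LPS (-0.21 ± 0.03 and -0.15 ± 0.03). Canx (-0.19 ± 0.03 and -0.12 ± 0.03) and Pdia3 (-0.19 ± 0.04 and -0.19 ± 0.04) fell as well. The gene that rose with LPS was Tapbpl, a relative of tapasin (0.11 ± 0.04, adjusted p = 0.0142), named after its value was seen and not called without Control replicate 3 or LPS replicate 2. Between the treatments 0 genes of this list were higher with LPS than with IL-1β and 1 was lower (median 0.00), the folding sensor Uggt1, named after its value was seen (-0.09 ± 0.03, adjusted p = 0.045). With LPS replicate 1 left out 3 were higher. The number lower was 0 without Control replicate 1, 2, 3 or 4, IL-1β replicate 2, 3 or 4, or LPS replicate 1, 2 or 3.

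Of 7 cytosolic and other peptidases, 2 rose and 1 fell with IL-1β (median 0.02), 1 rose and 1 fell with LPS (median 0.01), and 0 differed between the treatments at the threshold. Lnpep fell in both (-0.18 ± 0.04 and -0.24 ± 0.04). Thop1, which destroys cytosolic peptides, rose with IL-1β (0.16 ± 0.05) and LPS (0.14 ± 0.05, adjusted p = 0.0378), the former not called with IL-1β replicate 1 left out (0.13), the latter with any control library or LPS replicate 1, 2 or 3 left out. Npepps rose with IL-1β (0.10 ± 0.03) and was at 0.06 ± 0.03 with LPS.

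Of 16 regulators of class I genes, 8 rose and 3 fell with IL-1β (median 0.13), 9 rose and 1 fell with LPS (median 0.15), and 8 were higher and 1 lower with LPS than with IL-1β (median 0.15). The NF-kB subunit genes Nfkb1 (0.54 ± 0.03 with IL-1β, 0.78 ± 0.03 with LPS) and Rela (0.24 ± 0.03 and 0.40 ± 0.03) rose in both, as did Stat3 (0.45 ± 0.03 and 0.38 ± 0.03). Stat2 (-0.35 ± 0.08, adjusted p = 0.00282) and Irf9 (-0.17 ± 0.04, adjusted p = 0.00128), which act in interferon signalling and are named after their values were seen, fell with IL-1β. With LPS they stood at -0.10 ± 0.07 and -0.01 ± 0.04 and were not past the threshold. With LPS the number lower was 0 when Control replicate 1, 2 or 4 or LPS replicate 1, 2 or 4 was left out, and 2 when LPS replicate 3 was. Between the treatments the number higher was 5 without IL-1β replicate 2 or 4, and the number lower, Rfxank (-0.23 ± 0.08; named after its value was seen), was 0 with IL-1β replicate 2, 3 or 4 or any LPS library left out.

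Interferon receptors and their signalling genes rose in 8 of 12 tested with IL-1β and fell in 2 (median 0.30), and rose in 7 and fell in 2 with LPS (median 0.42). Between the treatments 5 were higher and 1 lower with LPS (median 0.12). The 1 that was lower was Socs3 (-0.86 ± 0.08), outside the naming rule, which rose in both treatments (2.68 ± 0.09 and 1.82 ± 0.09). Genes that restrain interferon signalling are also in this list, so its counts and medians do not measure that signalling. Jak2, a receptor kinase, went from 52.6 ± 2.04 CPM to 163 ± 6.85 with IL-1β (1.63 ± 0.03, adjusted p = 5.36e-24) and 191 ± 3.59 with LPS (1.86 ± 0.03, adjusted p = 3.11e-25). The related kinases Jak1 (0.02 ± 0.03 and -0.02 ± 0.03) and Tyk2 (0.11 ± 0.05 and 0.05 ± 0.05), outside the naming rule, were not past the threshold in either treatment. The receptor chain Ifnar2 (0.63 ± 0.04 and 0.75 ± 0.04) and the phosphatase Ptpn2, which acts on Jak and Stat proteins (0.59 ± 0.04 and 0.65 ± 0.04), rose in both. The interferon genes Ifng and Ifnb1 did not pass the filter, with at most 2 counts in any library. The 2 that fell, outside the naming rule, were Usp18 (-1.01 ± 0.17 and -0.51 ± 0.16), which restrains interferon signalling, and Ptpn6 (-0.85 ± 0.12 and -0.71 ± 0.11), a phosphatase of blood cells. The number lower with LPS was 1 when Control replicate 1, 2 or 4 or LPS replicate 1, 2 or 4 was left out.

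**Figure D5:**
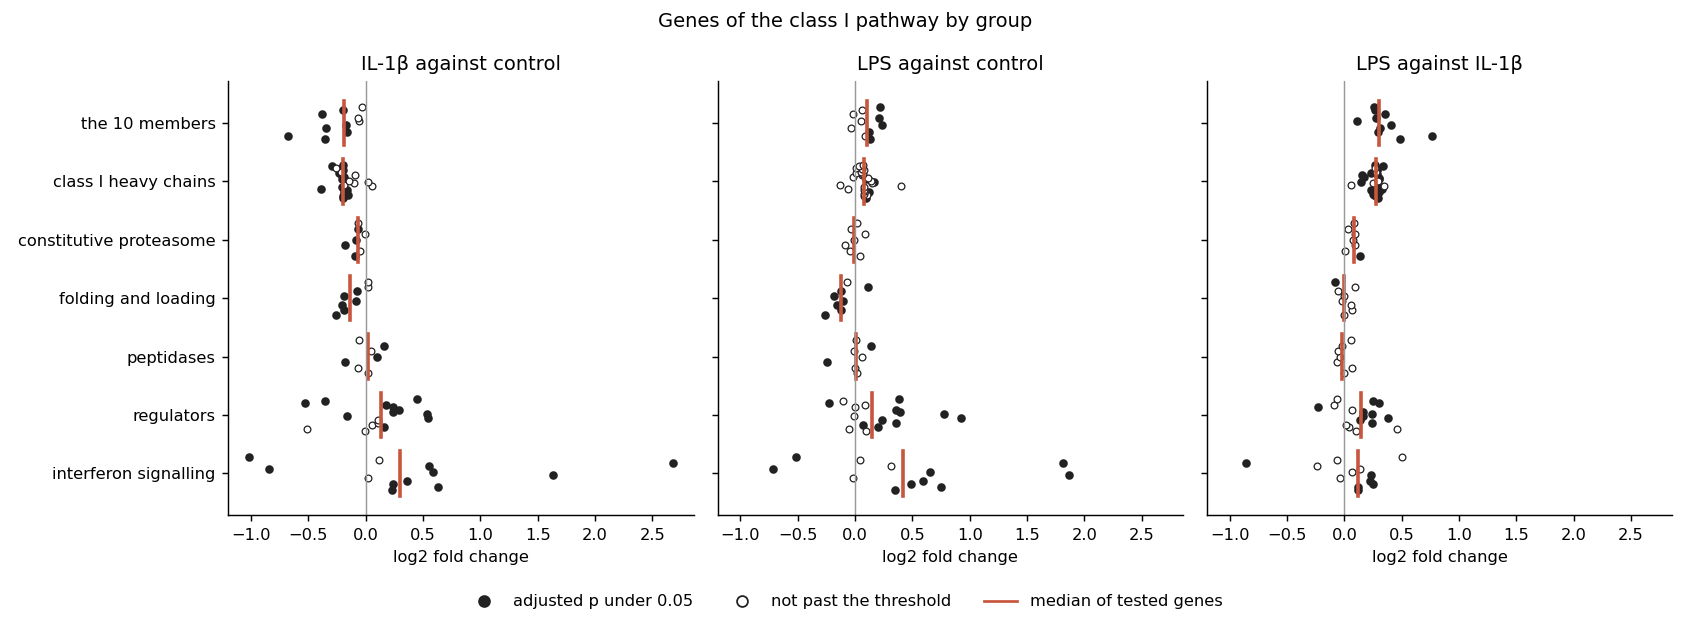
Log2 fold change (x axis) of every tested gene of the members and 6 other gene groups in the 3 comparisons, filled where the adjusted p was under 0.05, with the group median as a bar. The median bars of the members and the heavy chains lie left of 0 with IL-1β (-0.18 and -0.19) and right of 0 for LPS against IL-1β (0.30 and 0.28), and that of the folding and loading genes lies left of 0 in both treatments (-0.13 and -0.12).

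Immune cells express many of these genes strongly, so markers of other cell types are given beside the members. Of 15 macrophage markers tested, 10 fell and 2 rose with IL-1β, and 11 fell and 2 rose with LPS. Between the treatments 9 were lower and 1 higher with LPS. The 1 that was higher was Emr1, named after its value was seen. It had 15.96 to 18.75 CPM in control, 5.115 to 6.326 with IL-1β and 20.72 to 22.95 with LPS. The summed level of the 15 markers was 164 to 176 CPM in control, 113 to 123 with IL-1β and 106 to 115 with LPS, with 0 markers at 0 in any group. Of 12 lymphocyte markers 6 were tested. Of these 2 fell and 1 rose with IL-1β, 2 fell and 0 rose with LPS, and 1 was lower with LPS than with IL-1β, with a summed level of 20.4 to 22.6 CPM in control, 10.6 to 12 with IL-1β and 10.5 to 12.9 with LPS. The T cell marker Cd3e had between 0 and 7 counts per library, and the B cell marker Cd79b, named after its value was seen, had at most 3 counts in any library and 0 in 10 of 12. Other listed markers had more, such as Cd79a (105 to 216 counts in control libraries, 77 to 120 in treated ones) and Cd4 (249 to 383 and 101 to 153). Both were named after their values were seen. Cd4 held the largest share of the summed lymphocyte level. It had 11.66 to 12.88 CPM in control, 4.07 to 4.681 with IL-1β and 4.514 to 5.353 with LPS. Which cells the Cd4 reads came from was not tested. Dendritic cell markers, 3 of 6 tested, had a summed level of 32 to 35.5 CPM in control, 24 to 28.3 with IL-1β and 25.1 to 28.3 with LPS, with 2 higher and 1 lower in each treatment. The 1 that was lower, Zbtb46, held nearly all of that sum. It had 29.91 to 33.21 CPM in control, 20.66 to 23.72 with IL-1β and 21.36 to 24.84 with LPS. The 2 that were higher, Clec9a and Ccr7, had at most 1.449 and 0.3951 CPM in control. These 3 were named after their values were seen. Flt3, Xcr1 and Batf3 did not pass the filter. The part of these cells in the members' falls with IL-1β was not tested.

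Endothelial markers rose in 10 of 10 with IL-1β and 9 with LPS, and 10 were lower with LPS than with IL-1β, with a summed level of 178 to 210 CPM in control, 386 to 437 with IL-1β and 266 to 359 with LPS. Smooth muscle markers fell in 5 of 6 in each treatment and 1 rose with IL-1β, from 4620 to 5020 CPM in control to 1470 to 1680 with IL-1β and 1790 to 2030 with LPS. Granulosa markers rose in 3 of 6 and fell in 2 with IL-1β, and rose in 2 and fell in 1 with LPS, with 461 to 505 CPM in control, 626 to 784 with IL-1β and 482 to 601 with LPS. Inha, named after its value was seen, held the largest share of that sum. It had 256.1 to 301.3 CPM in control, 467.5 to 596.6 with IL-1β and 304.2 to 424.5 with LPS. Cyp19a1, also named after its value was seen, had 0 to 14 counts per library. The part of these shifts in the members' values was not tested.

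The genes whose pattern was most like that of Psmb8 were ranked by the root mean square difference of log2 CPM, after each gene's mean over the 12 libraries was subtracted, among 11536 genes with a mean of at least 2 CPM and an informative symbol. Tap1 was nearest (0.0386), followed by Slfn5 (0.0519), MGC108823 (0.0553), Bbs7 (0.0556) and Samhd1 (0.0629). Slfn5 stood at -0.33 with IL-1β and -0.08 with LPS, Bbs7 at -0.39 and -0.07, and Samhd1 at -0.32 and -0.07. The points share libraries and depth, so the measure describes likeness in these cultures.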

How the data were processed

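The authors deposited whole-number read counts, unnormalized, with a row for each gene symbol. The tools listed in the submitters' processing notes are TopHat2 (2.1.1), DESeq2 and SAMtools, and the build is Rnor_6.0. The counting program, annotation, use of strand and handling of reads shared by several genes are not given in the sources used here; the libraries came from a stranded kit, per the labels. Of the symbols, 1425 had no count. Genes were kept by filterByExpr, scaled by TMM and tested on all 12 libraries with group as sole term in edgeR 4.0.16 (R 4.3.3, glmQLFit, robust, two-sided quasi-likelihood F-tests, Benjamini-Hochberg over 17330 genes, called at an adjusted p under 0.05, no fold minimum). The procedure was run on simulated data in which all genes had the same spread and varied independently. That run does not cover genes that move together between libraries, as the members did. CPM used TMM-scaled totals. The SE is the absolute log2 fold change over the square root of F. Counting error adds to the spread between libraries, most for Nlrc5, which had the fewest counts of the members. No pair of libraries in a group matched within sampling noise (chi-square per degree of freedom 1.83 to 5.23). Levels were not compared between genes because transcript lengths were not used. Alternatives were DESeq2 1.42.0, its size factors alone, scaling by the upper quartile or library size, other filters and thresholds, limma-voom (limma 3.58.1), 8-library fits, a replicate block and each library left out. The members, lists, ratios and tests were chosen with earlier results of these data known. Named genes were the members, their ratio partners, the 3 genes of each list with the smallest p in either treatment, the 5 genes nearest to Psmb8, and defining cell type markers; exceptions are marked. Promoter sequences are from RefSeq, build GRCr8, matched by symbol. The values of 1 listed regulator are not reported here.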

Additional observations from a re-analysis of the deposited data

Results flagged for a closer look

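A sample far from the other 3 of its group was looked for in 48 groups, the 10 members and 6 ratios in 3 groups each, by the gap to the nearest sample as a share of the range, set against Dixon's 95% critical value for 4 samples. There were 3 such samples, and chance alone gives about 1 in 20 groups. Psmb8 in Control replicate 3 stood at 65.2 CPM, the lowest of its group (gap 0.874 of the range). Tapbp in LPS replicate 3 stood at 127.5 CPM, the highest of its group (0.841). The ratio of Psmb10 to Psmb7 in LPS replicate 1 was 0.638, the highest of its group (0.839). Without Control replicate 3 Psmb8 was still called lower with IL-1β, and without LPS replicate 3 Tapbp was still called higher with LPS.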

How the results depend on the processing

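Over 21 alternative settings the number of members that fell with IL-1β was 7 or 8, the number that rose with LPS 4 to 7, and the number higher with LPS than with IL-1β 10 in each. No member was called in the opposite direction. Of the member values recomputed, 622 kept their side of the threshold, 4 lost a call (B2m with LPS, in 3 fits that left out a library and in the replicate block, 0.13, adjusted p = 0.0643) and 4 gained one: Psme1 lower with IL-1β with DESeq2 size factors (-0.07) and without Control replicate 2 (-0.08), and Psme1 (0.09) and Tap2 (0.10) higher with LPS with library size alone. None of the 18 ratios passed in any of its 198 recomputed tests, and the paired version cannot give a p under 0.125. The smallest p that the unpaired test can give limits the other recomputed tests as well. The lack of a pass is therefore not evidence that the ratios were unchanged. Whether the replicate numbers pair the samples is not settled. Same-numbered libraries had correlations of deviations from -0.033 to 0.117 (median 0.0268, 12 pairs, 1 over 0.1). Differently numbered libraries of different groups had -0.0749 to 0.0557 (median -0.0124, 36 pairs, 0 over 0.1). With the replicate block the number of members called was 7, 4 and 10 in the 3 comparisons.

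Counts of the other lists moved by more than 1.5 times in 119 of 1056 recomputed values. Against 4 heavy chains higher with LPS there were 2 with DESeq2 size factors, upper-quartile factors, the stricter filter, the DESeq2 test and the replicate block, 1 at an adjusted p under 0.01, 8 with no filter and 10 with library size alone. With LPS, peptidases higher were 0 with DESeq2 size factors, upper-quartile factors, the stricter filter, the DESeq2 test, 8-library fits and an adjusted p under 0.01, and 2 with library size alone. Regulators lower with LPS were 0 with library size alone, no filter, the replicate block and an adjusted p under 0.01. Interferon signalling genes lower with LPS were 1 with no filter, the stricter filter, the replicate block and an adjusted p under 0.01, and lower with IL-1β 1 with the stricter filter. Constitutive genes lower with IL-1β were 0 with library size alone and 1 at an adjusted p under 0.01, and higher with LPS 1 with library size alone, no filter and the replicate block. Ubiquitin-like genes lower with LPS were 0 with no filter, the replicate block and an adjusted p under 0.01, higher with LPS 1 with the stricter filter, and higher with IL-1β 2 with library size alone. At an adjusted p under 0.01 peptidases higher with IL-1β were 1 and folding and loading genes higher with LPS 0, and with library size alone folding and loading genes higher with IL-1β were 1. For LPS against IL-1β, regulators lower were 2 with upper-quartile factors, library size alone, the stricter filter, limma-voom and the replicate block, and 0 with no filter, 8-library fits and an adjusted p under 0.01, where regulators higher were 4. In that comparison folding and loading genes lower were 0 with no filter, the DESeq2 test, limma-voom, 8-library fits and an adjusted p under 0.01, and higher 1 with the replicate block. Constitutive genes higher were 2 with no filter and the replicate block and 0 at an adjusted p under 0.01, and ubiquitin-like genes higher were 1 with the stricter filter, 8-library fits and an adjusted p under 0.01. The cause was not tested.

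With 1 library left out, LPS against control gave 1 to 6 heavy chains higher, 0 to 1 constitutive, 0 to 1 folding and loading and 0 to 1 peptidase genes higher, and 0 to 2 regulators, 1 to 2 interferon signalling and 0 to 1 ubiquitin-like genes lower. IL-1β against control gave 2 to 4 constitutive and 1 to 2 ubiquitin-like genes lower and 1 to 2 peptidases higher. LPS against IL-1β gave 0 to 3 constitutive, 0 to 3 folding and loading and 5 to 8 regulator genes higher, and 0 to 1 folding and loading and 0 to 1 regulator genes lower.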

Other observations

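Molecules built like class I, most of which also pair with the B2m product, went different ways. Of 4 tested, 1 rose and 2 fell with IL-1β, and 1 rose and 1 fell with LPS. Fcgrt, the neonatal Fc receptor that recycles antibody and albumin, went from 119 ± 1.15 CPM in control (SD, n = 4) to 101 ± 3.32 with IL-1β (-0.24 ± 0.03, adjusted p = 1.97e-07) and 105 ± 2.99 with LPS (-0.18 ± 0.03, adjusted p = 2.23e-05). Mr1, which presents vitamin B metabolites, fell with IL-1β (-0.37 ± 0.09, adjusted p = 0.00111), stood at 0.03 ± 0.09 with LPS, and was the 1 of the 4 that was higher with LPS than with IL-1β (0.40 ± 0.09, adjusted p = 0.00169). Cd1d1, which presents lipids, rose with IL-1β (0.45 ± 0.07, adjusted p = 7.88e-06) and with LPS (0.31 ± 0.07, adjusted p = 9.81e-04). Hfe was not past the threshold (0.07 ± 0.11 with LPS).

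Of 6 genes for ubiquitin and its relatives, 1 rose and 1 fell with IL-1β, 2 rose and 1 fell with LPS, and 2 were higher with LPS than with IL-1β. Ubd, a ubiquitin-like modifier that targets proteins to the proteasome, went from 0.675 ± 0.0940 CPM in control to 4.71 ± 0.362 with LPS (2.77 ± 0.16, adjusted p = 1.46e-14) and was at 0.918 ± 0.163 with IL-1β (0.42 ± 0.21, adjusted p = 0.113). Isg15 fell with IL-1β (-0.98 ± 0.14, adjusted p = 1.95e-04) and with LPS (-0.40 ± 0.13, adjusted p = 0.0331), the latter not called when Control replicate 1, 2 or 4 or LPS replicate 1, 2 or 4 was left out. Without IL-1β replicate 4 the number lower with IL-1β was 2. Rps27a, a fusion of ubiquitin with a ribosomal protein, rose in both (0.15 ± 0.03 and 0.13 ± 0.03).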
